A study of Mus musculus with 12 samples.

Results

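The genes described here are 32 genes of bile acid synthesis and hepatobiliary transport, picked by their known function from the 35275 rows of the expression table, with earlier results of these data known. They comprise 6 synthesis enzymes, 4 receptors of the FXR-FGF axis, 9 uptake carriers, 8 canalicular transporters and 5 basolateral efflux transporters. Of these, 30 reached a mean of 0.5 FPKM (mapped fragments scaled by gene length and by library depth) over 12 libraries and were tested. *Abcb1b*, a multidrug efflux pump, and *Slc51a*, the α subunit of the basolateral bile acid exporter, lay below it, at 0.0159 to 0.761 and 0 to 0.0984 FPKM. The libraries came from whole livers of male mice, with 3 mice in each of 4 groups: wild-type (WT) mice on chow, Pctp-/- mice on chow, WT mice on the MCD diet and Pctp-/- mice on the MCD diet. The MCD diet lacks methionine and choline, from which phosphatidylcholine is made, and is used to induce steatosis and liver damage. Pctp-/- mice lack phosphatidylcholine transfer protein (PC-TP), a soluble carrier of phosphatidylcholine, in the whole body and not in hepatocytes alone. The age, strain, time on the diet and hour of collection of these mice are not given in the sources used here.

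Hepatocytes make bile acids from cholesterol, by a classic route that begins with *Cyp7a1* and an alternative route that runs through *Cyp27a1* and *Cyp7b1*. Carriers of the sinusoidal membrane take bile acids back up from portal blood, and ATP-driven pumps of the canalicular membrane secrete them, with phosphatidylcholine flopped by *Abcb4*, into bile. Bile acids bind FXR (*Nr1h4*), which induces SHP (*Nr0b2*), and signal from the ileum through FGF15 to FGFR4 with its co-receptor β-klotho (*Klb*), and both arms are known to lower *Cyp7a1*.

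The uniquely mapped reads numbered 30486576 to 55179468 per library. Read quality and mapping moved with diet. The Q30 shares were 86.3 to 87.1% in the 6 chow libraries and 93.5 to 94.6% in the 6 MCD libraries. The uniquely mapped shares were 77.59 to 79.41% and 85.66 to 87.55%. The labels name no sequencing run or batch, and effects of diet cannot be told apart from those of read quality and mapping. *Pctp* itself ran from 1.21 to 2.65 FPKM in WT and from 0.330 to 0.566 FPKM in Pctp-/- mice on chow. On MCD it ran from 3.61 to 7.90 FPKM in WT and from 0.156 to 0.329 FPKM in Pctp-/- mice, and genotypes did not overlap on either diet. All 6 hepatocyte markers were abundant, with summed levels of 39785 to 45131 FPKM in the chow livers, 52989 to 59707 in WT livers on MCD and 67186 to 73566 in Pctp-/- livers on MCD, but albumin made up most of these sums. On MCD *Alb* rose in both genotypes (log2 fold changes 0.66 in WT and 1.02 in Pctp-/- mice), while 3 of the 6 markers fell in each, *Apoa1* (-0.45 and -0.55) and *Hnf4a* (-1.10 and -0.87) in both, *Cps1* in WT (-0.42) and *Tat* in Pctp-/- mice (-1.61). The median over the 6 was -0.38 in WT and -0.30 in Pctp-/- mice. The 6 macrophage markers summed to 47.7 to 128 FPKM on chow, 156 to 258 in WT mice on MCD and 128 to 136 in Pctp-/- mice on MCD. The 5 leukocyte markers summed to 0.543 to 4.03 FPKM on chow, 11.8 to 20.3 in WT and 6.18 to 10.8 in Pctp-/- mice on MCD. The 7 cholangiocyte markers summed to 18.5 to 32.3 FPKM, with *Cftr* and *Krt7* near 0, the 5 endothelial markers to 37.0 to 61.2 FPKM and the 5 stellate markers to 5.64 to 26.8 FPKM. In whole liver, fewer cells of a type and less RNA per cell cannot be told apart, and the part of these markers in the results was not tested. Replicate 1 of Pctp-/- mice on chow and replicate 1 of WT mice on MCD stood farthest from their groups, with an SD of the log2 difference from the other 2 mice of 0.377 and 0.332, against 0.221 to 0.312 in the other 10 libraries. The files hold no counts per gene, so no counting interval was given.

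FPKM is scaled by gene length, so levels can be set beside each other. In WT livers on chow, the most abundant transcripts were *Cyp27a1*, the mitochondrial sterol 27-hydroxylase, at 312 ± 28.4 FPKM (SD, n = 3), *Slco1b2*, an organic anion carrier of the sinusoidal membrane, at 308 ± 36.7, and *Slc10a1*, the sodium-dependent bile acid carrier NTCP, at 291 ± 31.2. The ranges of these 3 genes overlapped, and those of *Slco1b2* and *Slc10a1* overlapped with *Slco1a1*, another organic anion carrier, at 231 to 291 FPKM. *Cyp8b1*, the sterol 12α-hydroxylase that sets the share of cholic acid, came next at 132 to 182 FPKM and did not reach the lowest *Slco1a1* value. At the other end, *Cyp39a1*, *Abcb1a*, *Slc51b* and *Abcc4* had mean levels of 1.37, 0.458, 0.298 and 0.280 FPKM in WT livers on chow. On MCD the order was different, with *Slco1b2* and *Abcb11* the highest by mean in both genotypes and *Cyp27a1* at rank 6 in WT and rank 5 in Pctp-/- livers.

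**Figure D1:**
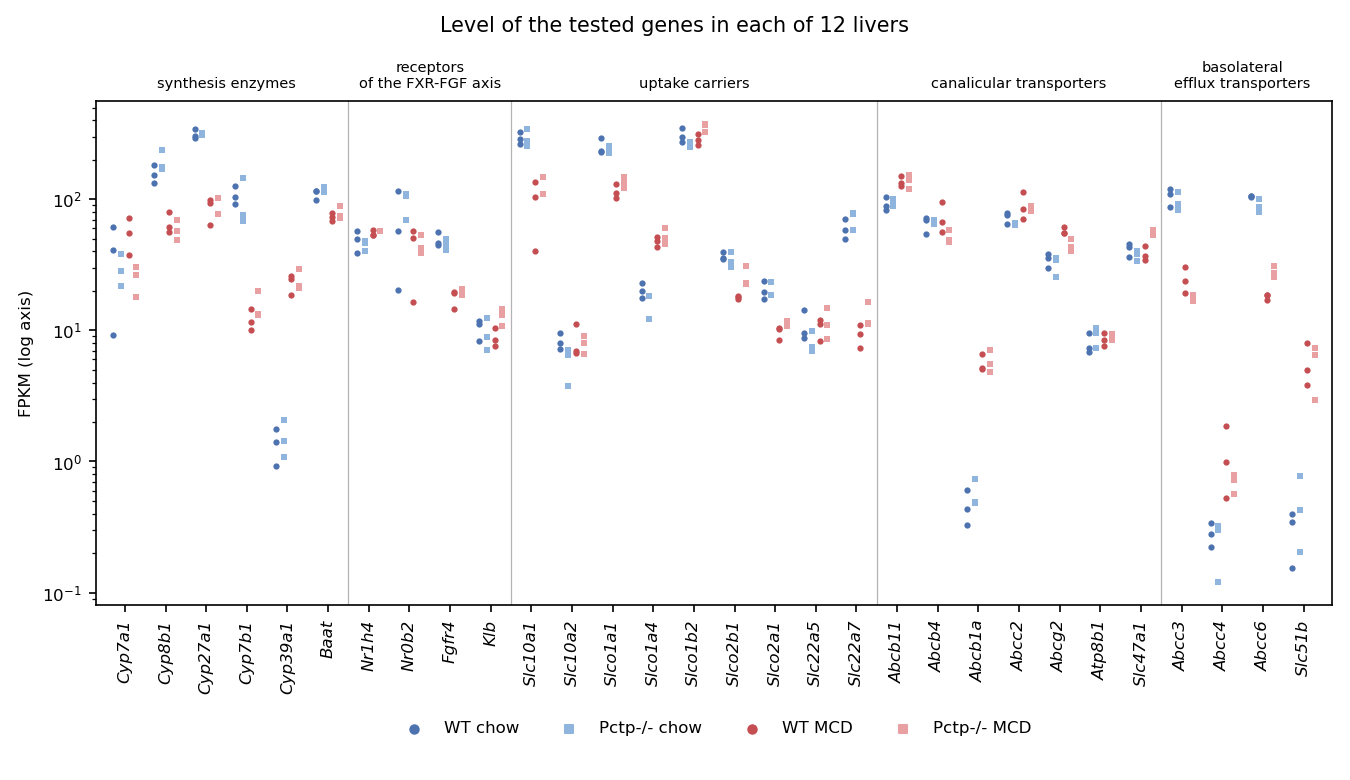
FPKM on a log axis for the 30 tested genes, arranged by role, with 1 point per mouse and a marker for each of the 4 groups. Chow and MCD points separate for genes such as *Cyp39a1*, *Cyp7b1*, *Slc22a7* and *Abcb1a*, while the genotypes lie close together within each diet.

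Most of these genes differed between the diets in both genotypes, although diet cannot be told apart from the differences in read quality and mapping. In WT mice, 19 of the 30 tested genes passed the test (limma on log2(FPKM + 1), Benjamini-Hochberg adjusted p under 0.05 over all 12466 tested genes), a share of 63.3% beside 57.0% of all tested genes. They were 7 higher and 12 lower on MCD, beside 34.5% and 22.5% of all tested genes. In Pctp-/- mice 22 passed, or 73.3% beside 50.3% of all tested genes, and 10 were higher and 12 lower, beside 26.0% and 24.4%. By size, 13 genes in WT and 12 in Pctp-/- mice were called with an absolute log2 fold change of at least 1, which 14.3% and 10.8% of all tested genes did. The median absolute log2 fold change was 0.91 over the 30 genes and 0.42 over all tested genes in WT mice, and 0.70 and 0.37 in Pctp-/- mice. *Abcb1a*, *Abcc4* and *Slc51b* had means under 0.5 FPKM in WT chow livers and passed the filter through the MCD libraries, so that their rise cannot be read from the counts above. Without these 3, 16 of 27 genes (59.3%) were called in WT, 4 higher and 12 lower, and 20 (74.1%) in Pctp-/- mice, 8 higher and 12 lower. Of the 27, 11 in WT and 10 in Pctp-/- mice had an absolute log2 fold change of at least 1, and the median was 0.85 and 0.62. Across all tested genes the median diet effect in WT was 0.11 on the log2 scale and moved to -0.0027 with median-of-ratios scaling, and no called value of the 30 genes changed sign under any of the alternative settings. Fold changes were taken after 1 was added to each FPKM value, so that those of low genes are understated.

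The genes called in both genotypes in the same direction numbered 18 of 30, 12 lower and 6 higher, beside 40.8% of all tested genes. None of the 30 was called in opposite directions. The shares of all tested genes called lower in both, higher in both or in opposite directions are not given here. Without the 3 genes above, 16 of 27 were called in both, 12 lower and 4 higher. *Abcc2*, *Nr1h4*, *Slc47a1* and *Slco1b2* were called in Pctp-/- mice alone and *Abcc4* in WT mice alone. *Abcb4*, *Atp8b1*, *Cyp7a1*, *Klb*, *Nr0b2*, *Slc10a2* and *Slc22a5* were called in neither. A call in 1 genotype alone does not show a difference between genotypes, and the difference of the 2 diet effects, tested as an interaction, was called for 0 of the 30 genes by limma, beside 0.0963% of all tested genes. At an unadjusted p under 0.05 it was 6 genes, beside 15.1% of all tested genes.

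**Figure D2:**
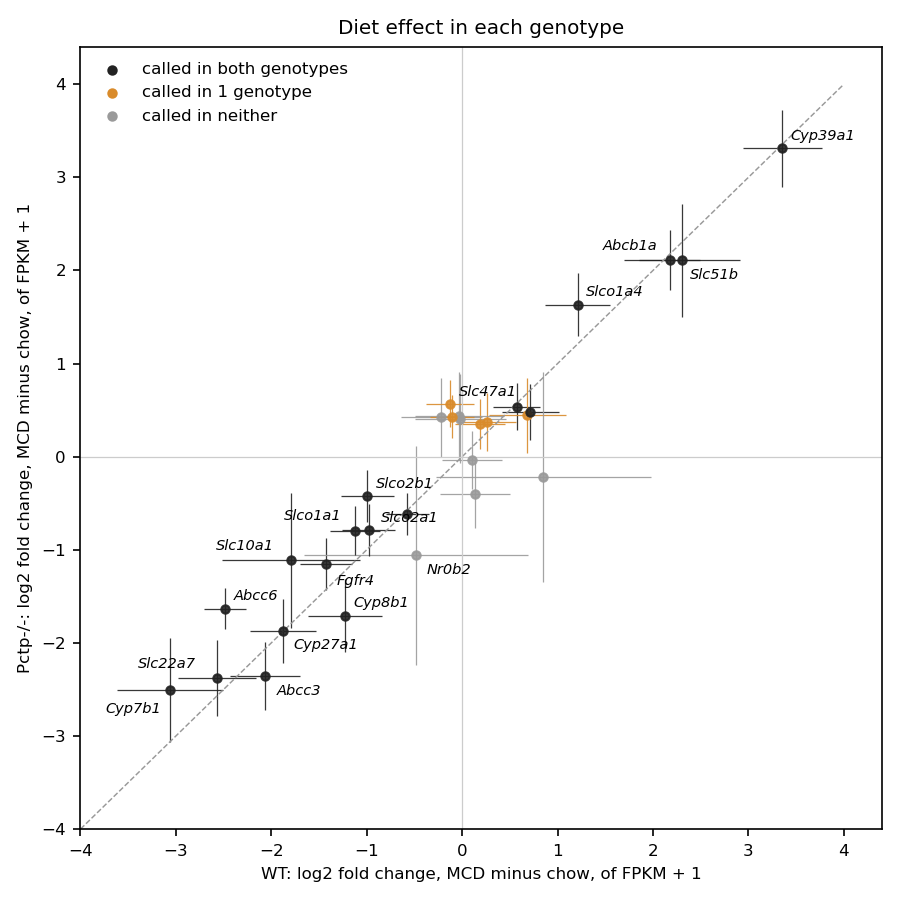
The log2 fold change of MCD against chow in WT mice (x axis) and in Pctp-/- mice (y axis) for the 30 tested genes, with bars for 95% intervals and a dashed line of equal change. The 18 genes called in both genotypes lie in the upper right and lower left, from *Cyp7b1* at -3.06 and -2.51 to *Cyp39a1* at 3.35 and 3.31.

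Among the 6 synthesis enzymes, 4 fell and 1 rose on MCD in each genotype. Of all tested genes, 22.5% were called lower in WT and 24.4% in Pctp-/- mice, and 34.5% and 26.0% higher. *Cyp7b1*, the oxysterol 7α-hydroxylase of the alternative route, read 105, 125 and 92.4 FPKM in the 3 WT mice on chow and 68.2, 145 and 75.2 in the 3 Pctp-/- mice on chow. On MCD it read 10.1, 11.6 and 14.5 in WT and 13.1, 13.3 and 19.8 in Pctp-/- mice. Every MCD liver lay far below every chow liver, with log2 fold changes of -3.06 (SE 0.26, adjusted p = 1.77e-06) in WT and -2.51 (SE 0.26, adjusted p = 1.06e-05) in Pctp-/- mice. *Cyp27a1* was at 291, 345 and 301 FPKM in WT and 318, 308 and 311 in Pctp-/- mice on chow. With MCD the values were 63.5, 98.4 and 94.4 in WT and 77.7, 76.8 and 102 in Pctp-/- mice. The diets did not overlap and the genotypes had nearly the same fall, with log2 fold changes of -1.88 (SE 0.16, adjusted p = 1.92e-06) in WT and -1.87 (SE 0.16, adjusted p = 2.63e-06) in Pctp-/- mice. *Baat*, which conjugates bile acids to taurine, fell less, from 99.5 to 115 on chow to 68.6 to 78.9 FPKM on MCD in WT and from 114 to 124 on chow to 71.5 to 89.2 FPKM on MCD in Pctp-/- mice (log2 fold changes -0.57 and -0.62). *Cyp39a1*, which 7α-hydroxylates the brain-derived oxysterol 24-hydroxycholesterol, went the other way. Its FPKM was 1.78, 0.930 and 1.41 in WT and 1.43, 1.07 and 2.08 in Pctp-/- mice on chow. Livers on MCD had 18.7, 24.8 and 26.2 FPKM in WT and 21.7, 29.3 and 21.1 in Pctp-/- mice. It was the largest diet effect among the 30 genes, 3.35 (SE 0.19, adjusted p = 1.06e-07) in WT and 3.31 (SE 0.19, adjusted p = 1.58e-07) in Pctp-/- mice.

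*Cyp8b1* was among the enzymes that fell. Chow livers had 153, 182 and 132 FPKM in WT and 237, 175 and 170.2 in Pctp-/- mice. MCD livers had 61.4, 80.5 and 56.4 in WT and 69.6, 57.6 and 48.9 in Pctp-/- mice. No MCD value reached a chow value, and the log2 fold changes were -1.23 (SE 0.18, adjusted p = 0.000118) in WT and -1.71 (SE 0.18, adjusted p = 1.35e-05) in Pctp-/- mice. The gene is a single exon on the minus strand of chromosome 9 (121914356 to 121916305, GRCm38), and the 250 bases before its start are shown because they hold a full match to a motif of HNF4A, a hepatocyte nuclear receptor. The sequence is from RefSeq (GRCm38.p6, chr9:121916306-121916555, minus strand) and is written 5′ to 3′, with motif matches in capitals.
Cyp8b1 promoter: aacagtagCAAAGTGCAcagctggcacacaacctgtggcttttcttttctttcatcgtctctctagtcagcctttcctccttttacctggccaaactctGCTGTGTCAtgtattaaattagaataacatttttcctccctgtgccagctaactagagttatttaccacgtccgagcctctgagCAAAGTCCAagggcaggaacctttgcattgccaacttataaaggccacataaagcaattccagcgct
The motif CAAAGTCCA, searched on both strands with up to 1 mismatch, matched 67 to 59 bases upstream with no mismatch and 242 to 234 bases upstream with 1. The stretch GCTGTGTCA, 151 to 143 bases upstream, is the reverse complement of the antioxidant response motif TGACNNNGC. Among 32851 promoters of the same length, 7.05% held the HNF4 motif and 10.2% the antioxidant response motif. A match describes letters only and says nothing about binding in these livers.

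*Cyp7a1*, the rate-limiting enzyme of the classic route, did not pass the test in any of the 5 comparisons. WT mice on chow had 40.9, 61.6 and 9.19 FPKM and Pctp-/- mice on chow 38.0, 28.3 and 21.8. On MCD the values were 71.9, 55.1 and 37.3 in WT and 30.3, 18.0 and 26.7 in Pctp-/- mice. The 3 WT mice on chow spanned the values of all other livers but 1, and the diet effect was 0.85 in WT (95% interval -0.28 to 1.98, adjusted p = 0.179) and -0.22 in Pctp-/- mice (95% interval -1.35 to 0.91). Both values rested on single mice. In WT it was 0.07 without replicate 3 of WT chow and 1.38 (adjusted p = 0.0354) without replicate 2. In Pctp-/- mice it was -0.022 without replicate 1 of Pctp-/- chow and -0.41 without replicate 3, and -0.37 and -0.011 without replicate 1 or 2 of Pctp-/- MCD. *Cyp8b1* over *Cyp7a1*, a ratio of FPKM values within each liver, was 2.95 to 14.4 in WT and 6.19 to 7.81 in Pctp-/- mice on chow, and 0.854 to 1.51 in WT and 1.83 to 3.19 in Pctp-/- mice on MCD. The diets did not overlap in either genotype.

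Among the 4 receptors of the FXR-FGF axis, *Fgfr4* fell in both genotypes, from 45.0 to 56.3 on chow to 14.5 to 19.5 FPKM on MCD in WT and from 41.2 to 49.7 on chow to 18.6 to 20.8 FPKM on MCD in Pctp-/- mice (log2 fold changes -1.43 and -1.15). Its co-receptor *Klb* was called in neither genotype and ran from 7.07 to 14.6 FPKM over the 12 livers. *Nr1h4*, which encodes FXR, had 39.2, 57.5 and 50.1 FPKM in WT and 40.2, 47.6 and 46.6 in Pctp-/- mice on chow. On MCD it had 53.7, 58.1 and 53.8 in WT and 57.7, 57.2 and 57.0 in Pctp-/- mice. The diets overlapped in WT, with a log2 fold change of 0.19 (SE 0.12, adjusted p = 0.210), and separated in Pctp-/- mice, at 0.35 (SE 0.12, adjusted p = 0.0301). The WT value was 0.04 without replicate 1 of WT chow and 0.31 without replicate 2, where it passed (adjusted p = 0.0476). The Pctp-/- call was lost without replicate 1 of Pctp-/- chow (adjusted p = 0.0975) and without each of the 3 Pctp-/- MCD mice. *Nr0b2*, the corepressor SHP, varied widely between mice of a group. It read 20.4, 57.2 and 116 FPKM in WT and 69.9, 109 and 106 in Pctp-/- mice on chow. On MCD it read 16.5, 50.8 and 57.4 in WT and 38.6, 53.1 and 42.1 in Pctp-/- mice. All 3 Pctp-/- mice on MCD lay below the 3 on chow, yet the log2 fold change of -1.06 (95% interval -2.23 to 0.12) did not pass (adjusted p = 0.121), and in WT it was -0.48 (95% interval -1.66 to 0.69). The WT value was 0.07 without replicate 1 of WT MCD, 0.09 without replicate 3 of WT chow and -1.13 without replicate 1 of WT chow.

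Across the 12 mice, log2 levels of *Cyp7a1* and *Nr0b2* had a Pearson r of -0.617 (permutation p = 0.0273) and a Spearman rho of -0.552 (permutation p = 0.0678). Within the 6 chow mice r was -0.596 (exact permutation p = 0.15) and rho -0.886 (exact permutation p = 0.0333), and within the 6 MCD mice r was -0.611 (exact permutation p = 0.231) and rho -0.371 (exact permutation p = 0.497). Without the 2 mice farthest from the median *Nr0b2* level, both replicate 1 of WT, r was -0.487 (permutation p = 0.161). Leaving out the extremes narrows the range of *Nr0b2*, so the lower r cannot show whether the relation rested on those mice. After Benjamini-Hochberg adjustment over the 4 sets of mice, the lowest adjusted p was 0.109 for r and 0.133 for rho, and the pair was chosen after its values were seen. Mice were permuted over each whole set without regard to group. These p-values therefore cannot separate differences between groups from those between mice of a group.

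**Figure D3:**
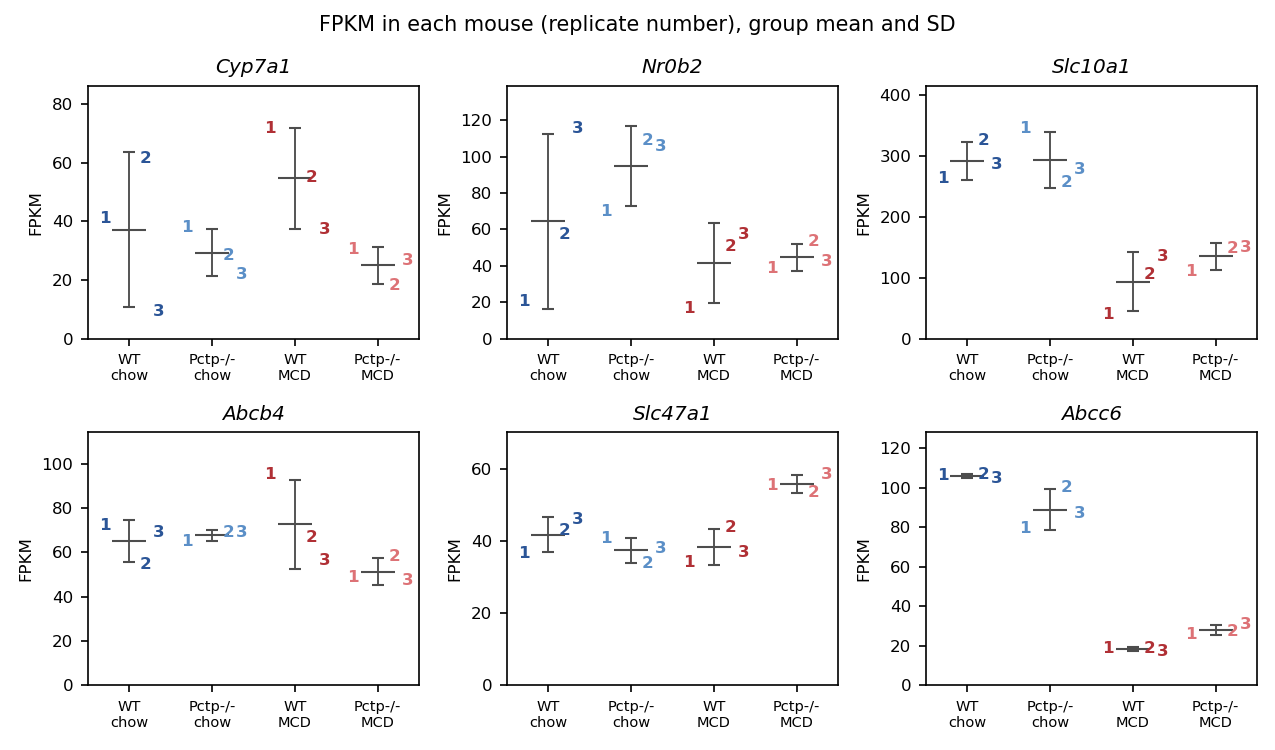
FPKM of 6 genes in each mouse, drawn as its replicate number, with the group mean and SD as horizontal line and bars, for WT and Pctp-/- mice on chow and MCD. *Cyp7a1* and *Nr0b2* spread widely within WT chow, replicate 1 of WT MCD is the lowest for *Slc10a1* and the highest for *Abcb4*, and *Slc47a1* and *Abcc6* separate the genotypes on MCD.

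Of the 9 uptake carriers, 5 were called lower in WT, beside 22.5% of all tested genes. The same 5 were called lower in Pctp-/- mice, beside 24.4%. *Slc22a7*, the organic anion transporter OAT2, fell the most. Its chow values were 58.4, 70.7 and 49.4 FPKM in WT and 77.7, 78.3 and 58.4 in Pctp-/- mice. Its MCD values were 7.29, 10.9 and 9.45 in WT and 11.2, 11.4 and 16.6 in Pctp-/- mice. The diets were far apart, with log2 fold changes of -2.57 (SE 0.19, adjusted p = 6.80e-07) in WT and -2.38 (SE 0.19, adjusted p = 1.54e-06) in Pctp-/- mice. *Slc10a1* had 263, 325 and 285 FPKM in WT and 346, 256 and 278 in Pctp-/- mice on chow. With MCD it had 40.0, 105 and 135 in WT and 109, 147 and 149 in Pctp-/- mice. It fell in both, with log2 fold changes of -1.79 (SE 0.33, adjusted p = 0.000668) in WT and -1.11 (SE 0.33, adjusted p = 0.0148) in Pctp-/- mice, and replicate 1 of WT MCD was the lowest of all livers. Without that mouse the WT change was -1.28, and without replicate 1 of Pctp-/- MCD the Pctp-/- change was -0.97 with an adjusted p of 0.0576.

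*Slc10a1* lies on the minus strand of chromosome 12 (80953183 to 80968705, GRCm38). Its 250 upstream bases (RefSeq, GRCm38.p6, chr12:80968706-80968955, minus strand, 5′ to 3′) are shown because the gene encodes the main sodium-dependent bile acid carrier of the sinusoidal membrane. They hold the HNF4 motif with 1 mismatch 173 to 165 bases upstream, in capitals.
Slc10a1 promoter: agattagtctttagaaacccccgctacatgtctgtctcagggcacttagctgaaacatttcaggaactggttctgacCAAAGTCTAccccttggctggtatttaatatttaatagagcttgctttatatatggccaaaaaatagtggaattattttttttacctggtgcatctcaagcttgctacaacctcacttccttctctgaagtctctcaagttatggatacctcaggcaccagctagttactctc
Of the 32 genes, 23 had an upstream sequence in the RefSeq table, 29 sequences in all, and 6 of the 29 (20.7%, beside 7.05% of all promoters) held the HNF4 motif. They were those of *Cyp8b1* and *Slc10a1*, which fell on MCD, and of *Abcb11*, which rose. The others were those of *Abcb1a* and *Abcc4*, which passed the filter through the MCD libraries, and of *Slc51a*, which was not tested. The part of the motif in these changes was not tested.

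*Slco1a1* ran from 231 to 291 FPKM on chow and 103 to 129.8 on MCD in WT, and *Slco2b1*, a carrier of steroid sulfates, from 34.8 to 39.3 and 17.4 to 18.2. *Slco2a1*, the prostaglandin transporter, ran from 17.3 to 23.7 FPKM on chow and 8.45 to 10.4 on MCD in WT. All 3 fell in WT (log2 fold changes -1.12, -0.99 and -0.98) and in Pctp-/- mice (-0.80, -0.42 and -0.79). In Pctp-/- mice the diets overlapped for *Slco2b1*, at 30.7 to 39.9 FPKM on chow and 22.6 to 31.0 on MCD. The *Slco2b1* call in Pctp-/- mice was lost without replicate 1 of Pctp-/- chow (adjusted p = 0.0548), and also without replicate 1 or 2 of Pctp-/- MCD. *Slco1a4*, a carrier of bile acids and digoxin, rose instead, from 17.6 to 22.9 on chow to 43.4 to 51.9 FPKM on MCD in WT and from 12.2 to 18.4 on chow to 45.8 to 60.1 FPKM on MCD in Pctp-/- mice (log2 fold changes 1.21 and 1.63). *Slco1b2* had 348, 300.2 and 276 FPKM in WT chow and 283, 261 and 313 in WT MCD, where it did not pass. In Pctp-/- mice it had 275, 265 and 252 on chow and 328, 368 and 373 on MCD and rose, with a log2 fold change of 0.43 (SE 0.10, adjusted p = 0.00474). *Slc10a2*, the apical bile acid carrier better known from ileum, and *Slc22a5*, the carnitine carrier, were called in neither genotype and ran from 3.79 to 11.2 and 6.92 to 14.9 FPKM over the 12 livers. Of the 100-base stretches of the *Slc22a5* transcript, 13.7% also occur in *Slc22a21*, so that its level is uncertain, while 0.867% of those of *Slco1a1* and 1.10% of those of *Slco1a4* occur in another gene.

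The summed level of *Slc10a1*, *Slco1a1*, *Slco1a4*, *Slco1b2* and *Slco2b1* was 847 to 960 FPKM in WT and 799.6 to 926 in Pctp-/- mice on chow. On MCD it was 487 to 644 in WT and 641 to 746 in Pctp-/- mice, below every chow liver. The share of *Slco1b2* in that sum was 29.7 to 36.2% in the chow livers and 47.7 to 58.2% in the MCD livers, and that of *Slc10a1* was 27.4 to 37.3% and 8.21 to 21.0%. On MCD *Slco1b2* thus took a larger share and *Slc10a1* a smaller one in each liver.

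Of the 7 tested canalicular transporters none fell, 3 rose in WT and 5 rose in Pctp-/- mice. *Abcb1a* was among them in both genotypes but passed the filter through the MCD livers, so its rise cannot be read from these counts. The others that rose were *Abcb11* and *Abcg2* in WT, and *Abcb11*, *Abcg2*, *Abcc2* and *Slc47a1* in Pctp-/- mice. Of all tested genes, 34.5% were called higher in WT and 26.0% in Pctp-/- mice, and 22.5% and 24.4% lower. *Abcb11*, the bile salt export pump, had 104, 82.4 and 88.9 FPKM in WT and 99.7, 89.5 and 94.1 in Pctp-/- mice on chow. On MCD it had 127, 132 and 149.9 in WT and 120.0, 153 and 141 in Pctp-/- mice. The diets did not overlap, with log2 fold changes of 0.57 (SE 0.12, adjusted p = 0.00122) in WT and 0.54 (SE 0.12, adjusted p = 0.00218) in Pctp-/- mice. *Abcb1a*, a multidrug pump of low level on chow, read 0.438, 0.329 and 0.606 FPKM in WT and 0.736, 0.488 and 0.484 in Pctp-/- mice. On MCD it read 6.61, 5.12 and 5.06 in WT and 4.84, 5.52 and 7.14 in Pctp-/- mice. All 6 MCD livers lay above all 6 chow livers, with log2 fold changes of 2.17 (SE 0.15) in WT and 2.11 (SE 0.15) in Pctp-/- mice. As the gene passed the filter through the MCD livers, its test was taken from the limma fit with no filter, which called it in both (adjusted p = 5.54e-06 and 8.48e-06). Of its 100-base stretches, 7.72% also occur in *Abcb1b*. *Abcg2*, the breast cancer resistance protein, rose from 30.0 to 38.3 on chow to 54.8 to 61.9 FPKM on MCD in WT and from 25.4 to 35.7 on chow to 40.6 to 49.9 FPKM on MCD in Pctp-/- mice (log2 fold changes 0.71 and 0.48). The Pctp-/- call of *Abcg2* was lost without replicate 1 of Pctp-/- MCD (adjusted p = 0.0528). *Abcc2*, the pump MRP2 for conjugated bilirubin, and *Slc47a1*, the cation exporter MATE1, rose in Pctp-/- mice, with log2 fold changes of 0.37 (adjusted p = 0.0435) and 0.57 (adjusted p = 0.00158). The *Abcc2* call held in 11 of 21 alternative settings, and was lost without each of the 6 Pctp-/- libraries and without replicate 3 of WT chow or replicate 2 of WT MCD. *Atp8b1*, a phospholipid flippase of the canalicular membrane, was called in neither genotype and ran from 6.86 to 10.5 FPKM over the 12 livers.

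*Abcb4*, the floppase that delivers phosphatidylcholine to bile, had 72.2, 54.4 and 69.1 FPKM in WT and 65.0, 69.1 and 69.2 in Pctp-/- mice on chow. On MCD it had 95.2, 66.6 and 56.4 in WT and 48.5, 58.3 and 47.1 in Pctp-/- mice. Replicate 1 of WT MCD was the highest liver and the 3 Pctp-/- MCD mice lay below the 3 on chow, with log2 fold changes that did not pass, 0.13 (SE 0.17, adjusted p = 0.529) in WT and -0.40 (SE 0.17, adjusted p = 0.0664) in Pctp-/- mice. Without replicate 1 of WT MCD the WT value was -0.08 and the Pctp-/- value passed (adjusted p = 0.0181), as it did without replicate 3 of WT MCD (adjusted p = 0.0423). *Abcb4* over *Abcb11* was 0.651 to 0.778 in the chow livers, 0.376 to 0.750 in WT MCD, where replicate 1 was again the highest, and 0.335 to 0.404 in Pctp-/- MCD livers.

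*Abcb11* (minus strand of chromosome 2, 69238282 to 69342616, GRCm38) and *Slco1b2* (plus strand of chromosome 6, 141629518 to 141686646) are shown with their 250 upstream bases because they were the 2 genes of the set whose upstream sequence held an inverted repeat of the kind FXR binds. The sequences are from RefSeq (GRCm38.p6, chr2:69342617-69342866, minus strand, and chr6:141629268-141629517, plus strand) and run 5′ to 3′, with motif matches in capitals.
Abcb11 promoter: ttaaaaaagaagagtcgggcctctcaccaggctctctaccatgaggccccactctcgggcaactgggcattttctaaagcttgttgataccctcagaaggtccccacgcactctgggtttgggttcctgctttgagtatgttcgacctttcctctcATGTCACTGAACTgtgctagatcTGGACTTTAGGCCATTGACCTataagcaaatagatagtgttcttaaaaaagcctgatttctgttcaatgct
Slco1b2 promoter: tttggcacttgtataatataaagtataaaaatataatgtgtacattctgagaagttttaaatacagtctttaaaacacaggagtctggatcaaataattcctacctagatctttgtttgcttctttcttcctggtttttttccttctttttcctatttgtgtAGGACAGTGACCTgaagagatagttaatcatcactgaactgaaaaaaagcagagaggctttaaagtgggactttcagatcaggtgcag
The motif, AGGTCA and its inverted copy with 1 free base between them, was searched with up to 2 mismatches and, being its own reverse complement, covers both strands. It matched in *Abcb11* 94 to 82 bases upstream with 2 mismatches (ATGTCACTGAACT) and 63 to 51 bases upstream with 1 (AGGCCATTGACCT). In *Slco1b2* it matched 88 to 76 bases upstream with 1 mismatch (AGGACAGTGACCT). It was present in 0.959% of the 32851 promoters. An HNF4 match with 1 mismatch, 71 to 63 bases upstream of *Abcb11*, shares 1 base with the inverted repeat beside it. The antioxidant response motif was upstream of 5 sequences of the set, those of *Cyp8b1*, *Klb*, *Abcc2* and 2 starts of *Abcc4*.

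The basolateral efflux transporters split. *Abcc3*, the pump MRP3, had 119, 86.7 and 110.0 FPKM in WT and 113, 92.2 and 83.5 in Pctp-/- mice on chow. On MCD it had 30.6, 23.9 and 19.2 in WT and 18.4, 18.6 and 16.7 in Pctp-/- mice. It fell in both genotypes without overlap, with log2 fold changes of -2.07 (SE 0.17, adjusted p = 1.40e-06) in WT and -2.35 (SE 0.17, adjusted p = 6.73e-07) in Pctp-/- mice. *Abcc6*, a hepatic transporter needed for ATP release into the circulation, had 106, 107 and 105 FPKM in WT and 79.4, 99.9 and 86.7 in Pctp-/- mice on chow. With MCD it had 18.7, 18.6 and 16.9 in WT and 25.6, 27.2 and 30.8 in Pctp-/- mice. It fell in both genotypes without overlap of the diets, with log2 fold changes of -2.49 (SE 0.10, adjusted p = 7.23e-09) in WT and -1.63 (SE 0.10, adjusted p = 2.31e-07) in Pctp-/- mice. *Slc51b*, the β subunit of the bile acid exporter OSTα-OSTβ, had 0.345, 0.153 and 0.396 FPKM in WT and 0.204, 0.781 and 0.425 in Pctp-/- mice on chow. On MCD it had 7.96, 3.84 and 4.95 in WT and 2.94, 6.49 and 7.28 in Pctp-/- mice. The log2 fold changes were 2.30 (SE 0.28) in WT and 2.11 (SE 0.28) in Pctp-/- mice, and limma with no filter called both (adjusted p = 0.000230 and 0.000489). Its partner *Slc51a*, without which the exporter is not formed, was listed at 0 in 7 of the 12 livers and reached at most 0.0984 FPKM. *Slc51b* overlaps exons of *Rasl12* on the opposite strand and *Slc51a* those of *Pcyt1a*, as do *Abcb11*, *Abcb1a*, *Abcb1b*, *Slco2a1* and *Slco2b1* those of other annotated genes, and whether the counting used strand is not given in the sources used here. *Abcc4*, the pump MRP4, had 0.338, 0.222 and 0.281 FPKM on chow and 1.85, 0.990 and 0.523 on MCD in WT, a log2 fold change of 0.68 (adjusted p = 0.0146 in the limma fit with no filter). Replicate 1 of WT MCD was the highest, and without it the change was 0.44. In Pctp-/- mice *Abcc4* was at 0.120 to 0.321 FPKM on chow and 0.565 to 0.789 on MCD, where the change of 0.44 did not pass (adjusted p = 0.0993 with no filter and 0.0650 with it), although with the filter it passed without replicate 1 of WT MCD (adjusted p = 0.0125) or replicate 3 (adjusted p = 0.0247). Levels below 1 FPKM make the fold changes of *Abcc4*, *Slc51b* and *Abcb1a* dependent on the pseudocount, with 1.54, 3.83 and 3.37 in WT at a pseudocount of 0.1.

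Of 50 other tested genes of the pathway, taken from lists written by function, 27 differed between the diets in WT (54.0%, beside 57.0% of all tested genes). In Pctp-/- mice 23 did (46.0%, beside 50.3%), and neither share exceeded that of all tested genes. For the counts below, 34.5% of all tested genes were called higher and 22.5% lower in WT, and 26.0% and 24.4% in Pctp-/- mice. Of 14 tested enzymes of the later synthesis steps, 2 rose and 8 fell in WT, and 2 rose and 6 fell in Pctp-/- mice. *Akr1d1*, the Δ4-3-oxosteroid 5β-reductase, rose (log2 fold changes 1.94 in WT and 1.69 in Pctp-/- mice). *Slc27a5*, the bile acid CoA ligase (-2.41 and -1.83), and *Acaa1b*, a peroxisomal thiolase with a close relative in *Acaa1a* (-1.84 and -2.16), fell. Of 14 tested regulators, 2 rose and 4 fell in WT and 2 rose and 5 fell in Pctp-/- mice, among them the coactivator *Ppargc1a* (1.04 and 1.35). Of 17 other tested transporters and canalicular proteins, 3 rose and 5 fell in WT and 3 rose and 3 fell in Pctp-/- mice. Of 5 tested genes of bile acid sulfation, hydroxylation and glucuronidation, 1 rose and 2 fell in WT and 2 fell in Pctp-/- mice.

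The knockout was compared with WT within each diet to ask what loss of PC-TP does to these genes. On chow, limma called 0 of the 30 genes, beside 0.136% of all tested genes, and 1 gene, *Abcc6*, had an unadjusted p under 0.05, or 3.33% beside 6.98% of all tested genes. The groups did not overlap for 3 genes, or 10.0% beside 10.6% of all tested genes, and the 3 were lower in Pctp-/- mice, beside 5.38% of all tested genes. These were *Abcc6* at 79.4 to 99.9 against 105 to 107 FPKM, *Slco1b2* at 252 to 275 against 276 to 348 FPKM, and *Slc10a2* at 3.79 to 7.14 against 7.20 to 9.50 FPKM. The median log2 fold change was -0.06 over the 30 genes and 0.0060 over all tested genes. For *Abcc6* the difference was -0.26 (95% interval -0.47 to -0.04, adjusted p = 0.597). *Cyp7a1* differed by -0.01 (95% interval -1.14 to 1.12) and *Nr0b2* by 0.84 (95% interval -0.33 to 2.02), and both intervals included 0. Without 1 library *Cyp7a1* ran from -0.79 to 0.52 (-0.79 without replicate 3 and 0.52 without replicate 2 of WT chow, -0.21 without replicate 1 of Pctp-/- chow). *Nr0b2* was 0.19 without replicate 1 of WT chow and 1.42 without replicate 3. Of the 19 genes on the clock list, 3 (*Dbp*, *Per3* and *Bhlhe41*) were called lower in Pctp-/- mice and 0 higher on chow. In either direction, 0.136% of all tested genes were called. The summed level of the 19 was 216 to 226 FPKM in Pctp-/- and 306 to 480 FPKM in WT mice. The list did not move 1 way. Chow means of *Arntl* (6.83 against 2.58 FPKM), *Nfil3* (34.9 against 17.9), *Npas2*, *Cry1* and *Clock* were higher in Pctp-/- than in WT mice. Those of the other genes on the list were lower. *Cyp7a1* and *Nr0b2* are known to vary over the day, and the part of the clock in their spread was not tested.

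On MCD, 1 of the 30 genes was called, beside 0.818% of all tested genes in either direction and 0.297% higher. It was *Abcc6*, which was higher in Pctp-/- mice, at 25.6, 27.2 and 30.8 FPKM against 18.7, 18.6 and 16.9 in WT. The groups did not overlap and the log2 fold change was 0.59 (SE 0.10, adjusted p = 0.0193). The call did not hold without replicate 2 of WT MCD (adjusted p = 0.0738), replicate 2 of Pctp-/- MCD (adjusted p = 0.0889) or replicate 3 of Pctp-/- MCD (adjusted p = 0.0933). With 3 mice a side, the smallest two-sided p of an exact permutation test is 0.1. The summed macrophage and leukocyte markers were lower in Pctp-/- than in WT livers on MCD and the summed hepatocyte markers higher, without overlap, as given above. The hepatocyte sum followed *Alb*, at a log2 difference of 0.38 (adjusted p = 0.142). None of the 6 hepatocyte markers was called, with a median of 0.06 and *Tat* at -0.69. Of the macrophage markers 0 of 6 were called, and of the leukocyte markers 0 of the 2 tested. *S100a8* made up much of the leukocyte sum, with means of 9.99 FPKM in WT and 3.79 in Pctp-/- livers on MCD. *Cd3e* alone went the other way, at 0.216 and 0.385 FPKM. Of the 30 genes, 9 had an unadjusted p under 0.05 on MCD by limma, beside 16.3% of all tested genes.

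The groups on MCD did not overlap for 10 genes, or 33.3% beside 26.6% of all tested genes. Of these 7 were higher in Pctp-/- mice, beside 5.50% of all tested genes, and 3 were lower, beside 21.1%. The higher ones were *Abcc6*, *Slc47a1*, *Slco2b1*, *Slco1b2*, *Slco2a1*, *Slc22a7* and *Klb*, and the lower ones were *Cyp7a1*, *Abcc3* and *Abcg2*. *Slc47a1* had 55.4, 53.4 and 58.4 FPKM in Pctp-/- and 34.1, 43.8 and 36.8 in WT mice on MCD, a log2 difference of 0.54 (SE 0.12, adjusted p = 0.0558) that was called in 3 of 21 alternative settings. *Slco2b1* had 22.6, 23.2 and 31.0 FPKM in Pctp-/- and 17.4, 18.2 and 18.0 in WT mice on MCD, a log2 difference of 0.48 (SE 0.13, adjusted p = 0.103). *Slco1b2* differed by 0.32 (SE 0.10, adjusted p = 0.165) and *Klb* by 0.50 (SE 0.19, adjusted p = 0.233). These genes separated the genotypes on MCD, but their differences did not pass the test.

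*Cyp7a1* on MCD was lower in each Pctp-/- mouse than in each WT mouse, and the log2 difference was -1.08 with a 95% interval of -2.21 to 0.04 and an adjusted p of 0.324. For *Slc10a1* the difference of 0.68 (95% interval -0.04 to 1.41) came down to 0.17 without replicate 1 of WT MCD. For *Abcb4* the difference of -0.47 (95% interval -0.84 to -0.10) came down to -0.26 without that mouse, and for *Slc10a1* it was 1.03 without replicate 3 of WT MCD. *Cyp8b1*, *Cyp27a1*, *Abcb11* and *Nr1h4* differed between genotypes on MCD by -0.17, 0.02, 0.01 and 0.05, none of which passed. The median log2 fold change of the knockout on MCD was 0.07 over the 30 genes and -0.09 over all tested genes.

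**Figure D4:**
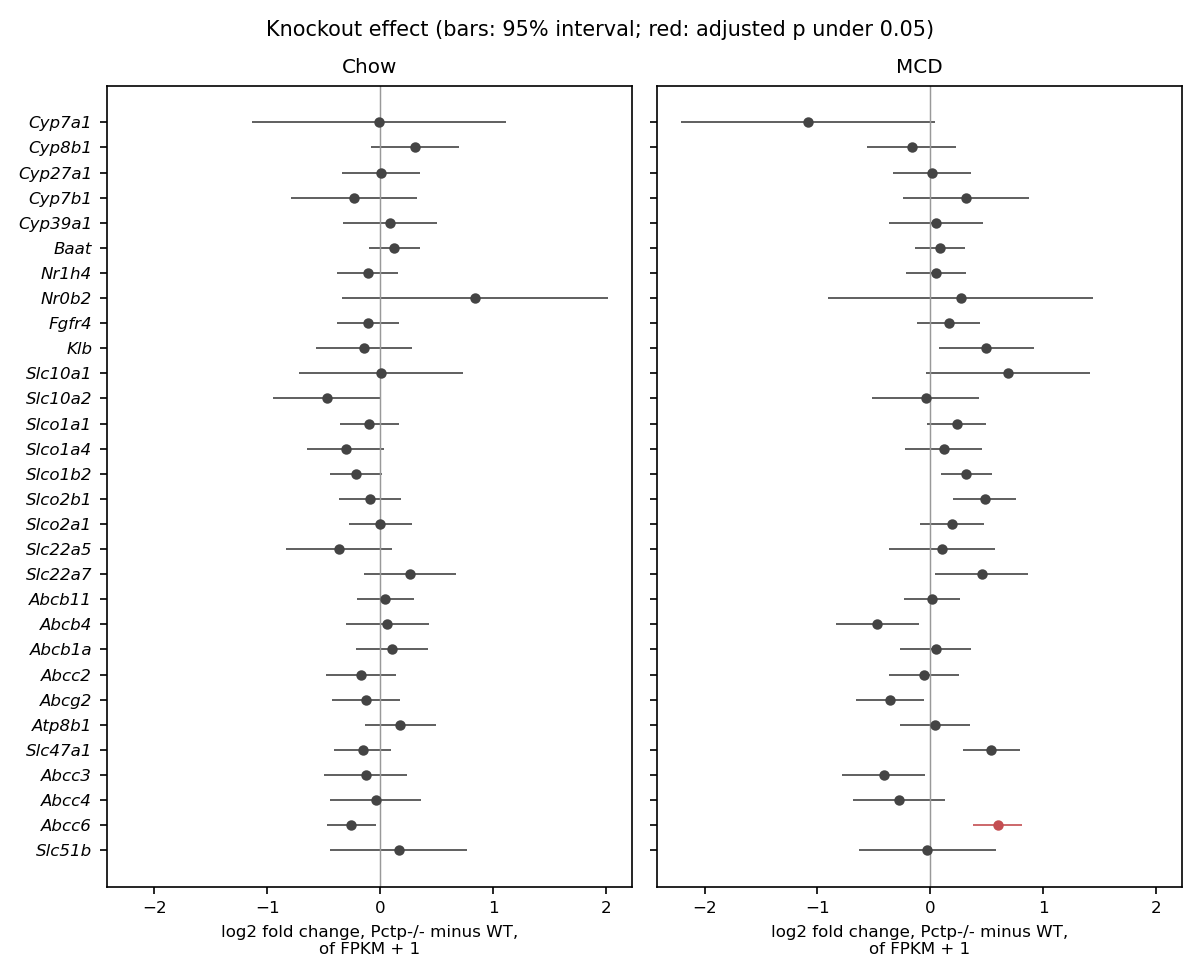
The log2 fold change of Pctp-/- against WT for the 30 tested genes on chow (left) and on MCD (right), with bars for 95% intervals and red for an adjusted p under 0.05. On chow no gene is red, and on MCD *Abcc6* is, at 0.59, with *Slc47a1* beside it at 0.54.

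In the pathway lists, limma called 0 of the 50 tested genes for the knockout on chow, beside 0.136% of all tested genes, with 3 (6.0%) at an unadjusted p under 0.05, beside 6.98%. On MCD it called 2 (4.0%, beside 0.818%), with 12 (24.0%) at an unadjusted p under 0.05, beside 16.3%. Both are cytochromes P450 known as targets of the receptors CAR and PXR. *Cyp2b10* had a log2 fold change of -3.02 (SE 0.43, adjusted p = 0.00738) and *Cyp3a11* one of -0.87 (SE 0.11, adjusted p = 0.00266), both lower in Pctp-/- mice. Both belong to families with close relatives, among which reads could have been split.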

How the data were processed

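Liver RNA of 12 mice was sequenced by a commercial provider, and the libraries were grouped by the genotype and diet in the submitters' labels, with 3 mice in each of 4 groups. The authors deposited gene expression as FPKM, 1 column per mouse, with reads mapped to mm10 per the submitters' processing notes. The aligner, the counting tool, the annotation and the use of strand are not given in the sources used here. The authors also deposited a statistics table with other measures, namely read totals, mapping shares and quality scores in percent, which was used for depth and quality. It gave 30486576 to 55179468 uniquely mapped reads per library, while the FPKM table gives no counts per gene, so that the precision was taken from the spread between mice.

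Gene symbols and positions were taken from GENCODE M21 (GRCm38), which held 34490 of the 35275 identifiers. Genes with a mean of at least 0.5 FPKM over the 12 libraries were tested with limma 3.58.1 in R 4.3.3 on log2(FPKM + 1), with 1 mean per group and the trend option, and p-values were adjusted by Benjamini-Hochberg over 12466 genes. The 5 comparisons were Pctp-/- against WT on chow and on MCD, MCD against chow in WT and in Pctp-/- mice, and the interaction of diet and genotype. A gene was called at an adjusted p under 0.05. As the values are not counts, the Wald test on counts used in the study was not run. The fit was tested on simulated data. Upstream sequences came from RefSeq (GRCm38.p6), and permutation tests and figures were made in Python 3.11.15 with scipy 1.17.1 and matplotlib 3.10.9. Sharing of transcript sequence was measured as the percentage of 100-base stretches also found in another gene.

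The genes and lists were chosen with earlier results of these data known. Each of the 32 genes is named, and values in every library are given for genes called in a knockout comparison, for the 10 with the largest mean absolute diet effect among those called in both genotypes, and for *Cyp7a1*, *Cyp8b1*, *Abcb11*, *Abcb4*, *Slc10a1*, *Nr1h4* and *Nr0b2*. Values of further genes were added after they were seen. Genes of the pathway lists are named where they were called for diet in both genotypes in the same direction by at least 1 on the log2 scale, or in a knockout comparison, and 1 gene that met this rule is not reported here. The alternatives were the pseudocount, the filter, the scaling, the trend and robust options, a fit of only the 6 libraries compared, a replicate block, a minimum fold change and leaving out each library.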

Additional observations from a re-analysis of the deposited data

Results flagged for a closer look

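*Abcc6* and *Slco1b2* stood out because every Pctp-/- mouse lay below every WT mouse on chow and above every WT mouse on MCD. On chow the genotypes nearly met for *Slco1b2*, at 274.9 FPKM in the highest Pctp-/- mouse and 275.5 in the lowest WT mouse. Genotypes did not overlap for 10.6% of all tested genes on chow and 26.6% on MCD. The share that did so in opposite directions was not counted. The effect of the knockout on MCD minus that on chow was 0.85 on the log2 scale for *Abcc6* (SE 0.14, adjusted p = 0.0536 from limma) and 0.53 for *Slco1b2* (SE 0.15, adjusted p = 0.142), so that neither difference passed the test. For *Abcc6* it passed in 9 of 20 alternative settings, with adjusted p values of 0.0259 to 0.174, and for *Slco1b2* in 0 of 20, with adjusted p values of 0.105 to 0.319.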

How the results depend on the processing

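Of 42 called values, 852 of 877 alternative values kept the direction and the call, 25 lost the call and 0 reversed, the 6 called values that lost it being *Abcc6* for the knockout on MCD and *Nr1h4*, *Slc10a1*, *Slco2b1*, *Abcc2* and *Abcg2* for the diet in Pctp-/- mice. For the knockout on MCD (1 gene called), 2 genes were called with a filter of 5 FPKM and with quantile normalization, 0 with only the 6 libraries compared or a minimum log2 fold change of 1, and 0 to 2 without 1 library. For the difference of diet effects (0 called), 1 gene was called with the filter of 5 FPKM, quantile normalization, median-of-ratios scaling or the robust option, and 0 to 1 without 1 library. For the knockout on chow, 0 genes were called in all 22 alternatives. For diet, 19 to 21 genes in WT (19 with all libraries) and 18 to 24 in Pctp-/- mice (22 with all libraries) were called without 1 library, and 13 and 12 with a log2 fold change of at least 1. The numbering of replicates did not pair the mice, as correlations of same-numbered deviations ran from -0.097 to 0.20. With the replicate number as a block, 1 gene, *Abcc6* (adjusted p = 0.0393), was called for the difference of diet effects, and the other 4 counts stayed within 1.5 times. Uncalled values that changed sign were *Cyp7a1* for the knockout on chow (-0.01), which was 0.0051 at a pseudocount of 0.1, 0.0020 with median-of-ratios scaling and -0.79 to 0.52 without 1 library, *Nr0b2* for diet in WT (-0.48), which was -1.13 to 0.0913 without 1 library, with 0.0655 without replicate 1 of WT MCD, and *Abcb4* for diet in WT (0.13), which was -0.0096 with median-of-ratios scaling and -0.0776 to 0.29 without 1 library, the lowest without replicate 1 of WT MCD. *Cyp7a1* for the knockout on chow was 0.23, 0.52 and 0.18 without replicate 1 or 2 of WT chow or replicate 3 of Pctp-/- chow. The causes of these changes were not tested. With 3 mice a group, small differences of genes that vary widely, such as *Cyp7a1* and *Nr0b2*, could not be detected.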
